A study of Mus musculus with 9 samples.

Results

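The genes described here were 33 genes of homologous recombination and Fanconi anaemia crosslink repair, taken by symbol from a mouse bulk RNA-seq count table of 53801 genes. They comprised 4 DNA damage kinases (Atm, Atr, Chek1, Chek2), 5 end-processing genes (Rad50, Nbn, Rbbp8, Exo1, Blm), 5 genes of the BRCA proteins and their partners (Brca1, Bard1, Palb2, Brca2, Brip1), 7 recombination mediators (Rad51c, Xrcc2, Xrcc3, Rad51ap1, Rad52, Rad54l, Rad54b), 8 genes of the Fanconi core complex and its anchor (Fanca, Fancb, Fancc, Fance, Fancf, Fancg, Fancl, Fancm), the Fanconi ID complex pair (Fancd2, Fanci), and 2 TIP60 complex genes (Ruvbl1, Kat5). All 33 were in the table and passed the filter on low counts, which left 22452 genes for testing. The libraries came from cultured mouse spermatogonial stem cells (SSCs) of Prmt5 flox/flox; Rosa26-CreERT2 animals, in which 1 µM 4-hydroxytamoxifen (4OHT) activates a Cre recombinase driven from a ubiquitous locus and deletes Prmt5. The sample labels name 3 groups of 3 libraries, 4OHT, MU and OE, and do not spell out the last 2 names. The study describes the deleted cells alone and after transfection of a catalytically dead PRMT5 mutant or of wild-type PRMT5, and MU and OE were read as these. All 9 libraries thus carried the 4OHT treatment, cells without deletion were not analysed here, and the labels do not say whether the 3 libraries of a group were separate cultures, so the p-values measure only the spread between these libraries.

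PRMT5 is the main enzyme that places symmetric dimethyl marks on arginines, on histones, splicing proteins and repair factors, among them RUVBL1, a helicase of the TIP60 acetyltransferase complex. Homologous recombination repairs broken DNA from the sister chromatid. Kinases signal the break, nucleases cut back its ends, BRCA1 and PALB2 bring BRCA2, and mediator proteins help the cut end to pair with the intact copy. In the Fanconi pathway a core complex adds ubiquitin to FANCD2 and FANCI at crosslinked DNA. Both pathways work mainly in S and G2 phase, and many of their genes are transcribed in a cell-cycle-dependent way. Dividing spermatogonia and, later, meiotic germ cells rely on them.

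Prmt5 was at 31.95, 30.8 and 28.2 CPM in 4OHT, 145, 147 and 146 CPM in MU, and 1072, 1071 and 1085 CPM in OE. The 3 groups did not overlap, and the lowest levels were in the libraries labelled 4OHT. Per-gene counts summed to between 78751996 and 365719548 a library, with the MU libraries deepest, and 3 counts corresponded to 0.0082 to 0.0381 CPM (counts scaled to a common library size, with edgeR's TMM factors), far below the lowest level of any repair gene. With counts divided by 4, since values of 4 were over-represented, replicates of a group differed by 3.72 to 24.8 times the variance of counting alone. The spread was unequal, at 7.5 to 24.8 in 4OHT, 6.28 to 7.59 in MU and 3.72 to 4.63 in OE. All 14 spermatogonia markers were detected. They summed to 2429 to 2461 CPM in 4OHT, 3371 to 3469 CPM in MU and 3619 to 3660 CPM in OE, and Dazl, Uchl1 and Ddx4 made up 19.6%, 19.2% and 15.1% of the sum. Of these 14, 8 were higher (Mael by 1.15 on the log2 scale) and 5 lower (Gfra1 by -2.09) in OE than in 4OHT. RNA of other cells was also present. Summed markers of fibroblasts, the cell type of the feeder layer, ran from 9973 to 12140 CPM in 4OHT, 5483 to 5566 CPM in MU and 4309 to 4385 CPM in OE, with 13 of 14 lower in OE (Pdgfrb by -1.76, Fn1 by -1.74). Summed macrophage markers ran from 185 to 200.6, 1172 to 1204 and 2267 to 2394 CPM in the same order, with 12 of 15 higher in OE (Ptprc by 5.01, Fcer1g by 4.96), 3 lower, and Lyz2 at 80.2% of the sum.

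In OE against 4OHT, 25 of the 33 repair genes rose and 0 fell (edgeR's quasi-likelihood test, Benjamini-Hochberg adjusted p below 0.05 over all genes tested). Of all 22452 genes, 29.9% were called higher and 27.9% lower. The median log2 fold change of the repair genes was 0.40 (range -0.024 to 1.99), against 0.018 for all genes. In 26 of the 33, every OE library was above every 4OHT library, and the same held for 31.5% of all genes. For the count of 0 lower, 0 repair genes were lower at an unadjusted p below 0.05 by edgeR, DESeq2 or limma voom, and DESeq2 called 25 and voom 24 higher. In MU against 4OHT, 25 of 33 rose and 0 fell, beside 29.5% higher and 26.5% lower among all genes, with a median log2 fold change of 0.41 (range -0.0036 to 1.92). All MU libraries were above all 4OHT libraries for 25 of the 33 and for 33.8% of all genes. Again 0 repair genes were lower at an unadjusted p below 0.05 by any of the 3 tools, and DESeq2 and voom each called 25 higher. Both comparisons share the 4OHT libraries. No group carried a construct without PRMT5, so the transfection and the PRMT5 it brought in cannot be told apart in either.

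These counts are relative to the whole RNA pool, which changed along with the marker lists. The summed repair genes ran from 1285 to 1362 CPM in 4OHT to 1865 to 1885 CPM in MU and 1921 to 1942 CPM in OE. As a ratio to the summed spermatogonia markers, the same sums were 0.522 to 0.557 in 4OHT, 0.539 to 0.553 in MU and 0.525 to 0.535 in OE. The 4OHT range spanned those of MU and OE, and every MU library lay above every OE library. When library sizes were instead set by the 14 spermatogonia markers, a choice made after seeing the data, 7 repair genes were higher and 17 lower in OE than in 4OHT (all genes 10.4% higher, 55.7% lower). In MU 8 were higher and 13 lower (all genes 11.7% and 50.1%). The medians of the repair genes then were -0.18 in OE and -0.072 in MU, and those of all genes -0.56 and -0.44. Higher under either scaling in OE were Rad54b, Brca2, Rad51c, Fancb, Exo1, Fancl and Blm. In MU these 7 and Chek1 were. Lower with the marker scaling in both were Nbn, Rbbp8, Bard1, Palb2, Xrcc2, Xrcc3, Rad51ap1, Rad52, Rad54l, Fance, Fancf, Fancd2 and Ruvbl1, and in OE also Atm, Chek2, Fanca and Fancm. In a bulk sample, fewer cells of a type and less RNA per cell cannot be told apart. The marker scaling shifts all genes by about the same amount, so it does not separate composition from expression for any gene. The part of cell composition in the rise of the repair genes was not tested, also for those that stayed higher.

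**Figure D1:**
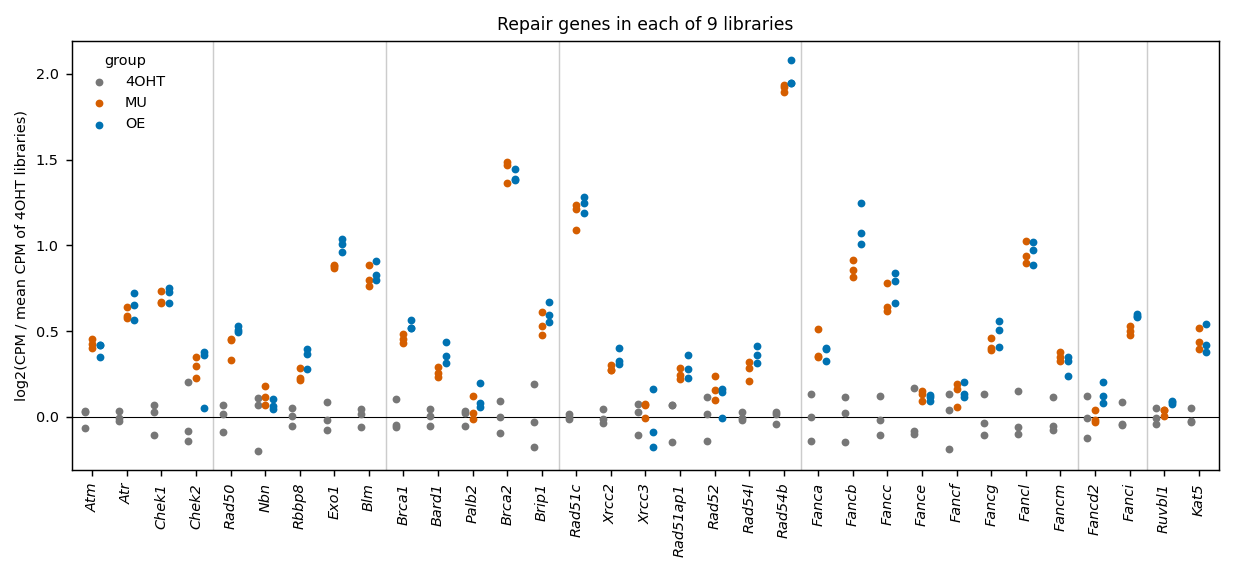
CPM of each repair gene in each of the 9 libraries, as the log2 ratio to the mean of the 3 4OHT libraries; vertical lines separate the roles. Rad54b, Brca2 and Rad51c stand highest in MU and OE, while Nbn, Palb2, Xrcc3, Rad52, Fance, Fancf, Fancd2 and Ruvbl1 stay near 0. Scaled to the spermatogonia markers, 17 of the 33 were lower in OE than in 4OHT, beside 55.7% of all genes.

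Among the kinases, all 4 were called higher in OE and in MU on the TMM scale, with median log2 fold changes of 0.52 and 0.51. Of all genes, 29.9% were called higher in OE and 29.5% in MU. Atr, the kinase of stalled replication forks, was at 101, 97.7 and 96.6 CPM in 4OHT, 154, 148 and 147 CPM in MU, and 162, 146 and 155 CPM in OE. Chek1, the checkpoint kinase that ATR activates, was at 34.6, 30.6 and 33.6 CPM in 4OHT, 54.7, 52.5 and 52.2 CPM in MU, and 55.5, 54.5 and 52.1 CPM in OE. For both genes the 6 MU and OE libraries lay above the 3 4OHT libraries and the MU and OE libraries overlapped. Each log2 fold change is given ± its standard error, here and below. The log2 fold change of Atr was 0.65 ± 0.050 (adjusted p = 7.14e-08) in OE and 0.60 ± 0.050 (adjusted p = 1.66e-07) in MU. For Chek1 it was 0.71 ± 0.059 (adjusted p = 1.42e-07) and 0.69 ± 0.058 (adjusted p = 2.11e-07). Atm, the kinase that answers double-strand breaks, averaged 121 ± 4.83 CPM in 4OHT, 163 ± 3.09 CPM in MU and 159 ± 4.34 CPM in OE (levels in CPM are mean ± SD, n = 3, here and below). Its log2 fold changes were 0.40 ± 0.047 (adjusted p = 5.89e-06) and 0.43 ± 0.047 (adjusted p = 3.04e-06). Its partner Chek2 was at 21.1, 16.6 and 17.3 CPM in 4OHT, 21.4, 22.5 and 23.4 CPM in MU, and 23.6, 23.8 and 19.01 CPM in OE, where the lowest OE library lay below the highest 4OHT library. Its calls were marginal, with a log2 fold change of 0.27 ± 0.10 (adjusted p = 0.0403) in OE and 0.29 ± 0.10 (adjusted p = 0.0276) in MU. The OE call was lost without 4OHT replicate 2 (0.21) or 3 (0.22), MU replicate 2 (0.26) or 3 (0.26), or OE replicate 1 (0.23) or 2 (0.23). The MU call was lost without 4OHT replicate 2 (0.23) or 3 (0.25), or MU replicate 2 (0.28) or 3 (0.25). Over the 18 alternative fits, marker scalings aside, the adjusted p of Chek2 ranged from 0.00646 to 0.154 in OE and from 0.00412 to 0.11 in MU. Chek2 was not called in 10 of the 18 in OE and in 4 of the 18 in MU. Scaled to the spermatogonia markers, Atm and Chek2 were lower in OE than in 4OHT (-0.18 and -0.31 on the log2 scale).

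Of the end-processing genes, 4 of 5 rose in each comparison on the TMM scale, beside 29.9% (OE) and 29.5% (MU) of all genes. Exo1, the exonuclease that extends resected ends (chr1:175880581-175913489 in GRCm38), was at 49, 51.1 and 54.97 CPM in 4OHT, 94.98, 94.3 and 95.3 CPM in MU, and 101, 106 and 104 CPM in OE. All 3 groups were separate, with OE highest. Its level was 2.001-fold that of 4OHT in OE and 1.83-fold in MU, log2 fold changes of 1.001 ± 0.052 (adjusted p = 1.12e-09) and 0.88 ± 0.051 (adjusted p = 5.04e-09). Blm, the helicase that unwinds recombination intermediates, was at 38.9, 36.2 and 38.1 CPM in 4OHT, 69.5, 64.1 and 65.6 CPM in MU, and 67.01, 65.6 and 70.95 CPM in OE. MU and OE overlapped and both lay above 4OHT, with log2 fold changes of 0.85 ± 0.056 (adjusted p = 1.36e-08) and 0.82 ± 0.055 (adjusted p = 2.24e-08). Rad50, the scaffold of the break-sensing MRN complex, averaged 108 ± 6.01 CPM in 4OHT, 143 ± 6.61 CPM in MU and 153 ± 2.03 CPM in OE, and its log2 fold change was 0.51 ± 0.053 (adjusted p = 1.57e-06) in OE and 0.41 ± 0.053 (adjusted p = 1.36e-05) in MU. Rbbp8, which encodes the resection starter CtIP, averaged 38.9 ± 1.42 CPM in 4OHT, 46.05 ± 1.25 CPM in MU and 49.5 ± 2.08 CPM in OE, with changes of 0.35 ± 0.056 (adjusted p = 9.88e-05) and 0.24 ± 0.055 (adjusted p = 0.00184). With the spermatogonia scaling Rbbp8 was lower in both (-0.23 and -0.24). Nbn, the third MRN subunit, was at 22.7, 18.9 and 23.5 CPM in 4OHT, 23.5, 22.8 and 24.6 CPM in MU, and 22.4, 23.4 and 22.7 CPM in OE. Its 3 groups overlapped and neither comparison called it, at 0.071 ± 0.081 (adjusted p = 0.476) and 0.12 ± 0.080 (adjusted p = 0.218).

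The BRCA group held a gene with a large change and a gene without a call side by side. Brca2, the central mediator of the pathway (chr5:150522630-150570329), was at 66.7, 58.6 and 62.6 CPM in 4OHT, 173, 176 and 162 CPM in MU, and 163, 164 and 171 CPM in OE. Every MU and OE library was far above the highest 4OHT library, and MU and OE overlapped. The fold was 2.65 in OE and 2.72 in MU, log2 fold changes of 1.41 ± 0.057 (adjusted p = 9.86e-11) and 1.44 ± 0.056 (adjusted p = 1.08e-10). Palb2, the bridge between BRCA1 and BRCA2, was at 35.9, 33.8 and 35.6 CPM in 4OHT, 35.7, 34.8 and 38.2 CPM in MU, and 37.05, 36.6 and 40.3 CPM in OE. OE lay just above 4OHT and MU overlapped both, and neither change passed the test, at 0.11 ± 0.062 (adjusted p = 0.132) and 0.046 ± 0.061 (adjusted p = 0.553). Brca1, which encodes a ubiquitin ligase, averaged 79.7 ± 5.22 CPM in 4OHT, 109 ± 1.97 CPM in MU and 115 ± 2.25 CPM in OE. The log2 fold changes of Brca1 were 0.53 ± 0.052 (adjusted p = 8.51e-07) and 0.45 ± 0.052 (adjusted p = 4.41e-06). Its obligate partner Bard1 averaged 42.4 ± 1.46 CPM in 4OHT, 50.8 ± 1.1 CPM in MU and 54.7 ± 2.41 CPM in OE, with 0.37 ± 0.054 (adjusted p = 4.56e-05) and 0.26 ± 0.054 (adjusted p = 0.000884). The helicase Brip1, which binds BRCA1, averaged 27.04 ± 3.51 CPM in 4OHT, 39.3 ± 1.81 CPM in MU and 41.2 ± 1.74 CPM in OE, with 0.61 ± 0.083 (adjusted p = 2.21e-05) and 0.54 ± 0.082 (adjusted p = 6.44e-05). Bard1 was lower in both comparisons with the spermatogonia scaling (-0.21 and -0.22), and Brca1 was called in neither.

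Rad54b had the largest change of the 33. Rad54b, a DNA translocase of recombination (chr4:11558922-11615805), was at 10.5, 10.9 and 10.98 CPM in 4OHT, 40.9, 40.01 and 41.2 CPM in MU, and 41.6, 45.6 and 41.6 CPM in OE. The 4OHT libraries lay within 1 CPM of each other and far below the other 6. The fold was 3.98 in OE and 3.77 in MU, log2 fold changes of 1.99 ± 0.062 (adjusted p = 9.08e-12) and 1.92 ± 0.062 (adjusted p = 1.87e-11). In the annotation 35.8% of its exon bases are shared with Fsbp on the same strand, and Fsbp averaged 3.38 ± 0.352 CPM in 4OHT, 3.84 ± 0.675 CPM in MU and 3.24 ± 0.294 CPM in OE, with -0.061 ± 0.16 (adjusted p = 0.775) in OE. Its close relative Rad54l, which encodes RAD54, averaged 48.7 ± 0.839 CPM in 4OHT, 58.8 ± 2.27 CPM in MU and 62.7 ± 2.15 CPM in OE. The changes of Rad54l were smaller, 0.36 ± 0.052 (adjusted p = 3.43e-05) and 0.27 ± 0.052 (adjusted p = 0.000468), and turned lower with the spermatogonia scaling (-0.21 and -0.21).

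The other mediators split in the same way. Rad51c, found in both of the mediator complexes it shares with the Xrcc genes (chr11:87376645-87404954), was at 23.8, 23.5 and 23.4 CPM in 4OHT, 54.6, 50.1 and 55.4 CPM in MU, and 55.8, 53.7 and 57.2 CPM in OE. Its 4OHT libraries were nearly equal and the MU and OE libraries overlapped above them. The fold was 2.36 in OE and 2.26 in MU, log2 fold changes of 1.24 ± 0.057 (adjusted p = 3.92e-10) and 1.18 ± 0.057 (adjusted p = 7.56e-10). Xrcc3, the partner of RAD51C in the smaller complex, was at 13.1, 14.4 and 14.8 CPM in 4OHT, 14.04, 14.8 and 14.9 CPM in MU, and 12.5, 13.3 and 15.8 CPM in OE. Its 3 groups overlapped, with -0.024 ± 0.096 (adjusted p = 0.848) and 0.044 ± 0.095 (adjusted p = 0.726). Xrcc2, a subunit of the larger complex, averaged 15.4 ± 0.43 CPM in 4OHT, 18.7 ± 0.216 CPM in MU and 19.6 ± 0.663 CPM in OE, with log2 fold changes of 0.34 ± 0.066 (adjusted p = 0.000474) and 0.28 ± 0.066 (adjusted p = 0.00213). Rad51ap1, an accessory factor of strand pairing, averaged 13.3 ± 1.11 CPM in 4OHT, 15.8 ± 0.352 CPM in MU and 16.3 ± 0.754 CPM in OE, with 0.29 ± 0.081 (adjusted p = 0.00713) and 0.25 ± 0.080 (adjusted p = 0.0171). The MU call of Rad51ap1 was lost without 4OHT replicate 1 (0.17) or MU replicate 3 (0.22), with adjusted p between 0.00124 and 0.0878 over the alternatives. Rad52, a mediator of strand annealing, averaged 13.9 ± 1.23 CPM in 4OHT, 15.6 ± 0.746 CPM in MU and 14.9 ± 0.968 CPM in OE and was called in neither, at 0.10 ± 0.088 (adjusted p = 0.345) and 0.17 ± 0.087 (adjusted p = 0.125). With the spermatogonia scaling, Xrcc2, Rad51ap1, Xrcc3 and Rad52 were lower in both comparisons.

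**Figure D2:**
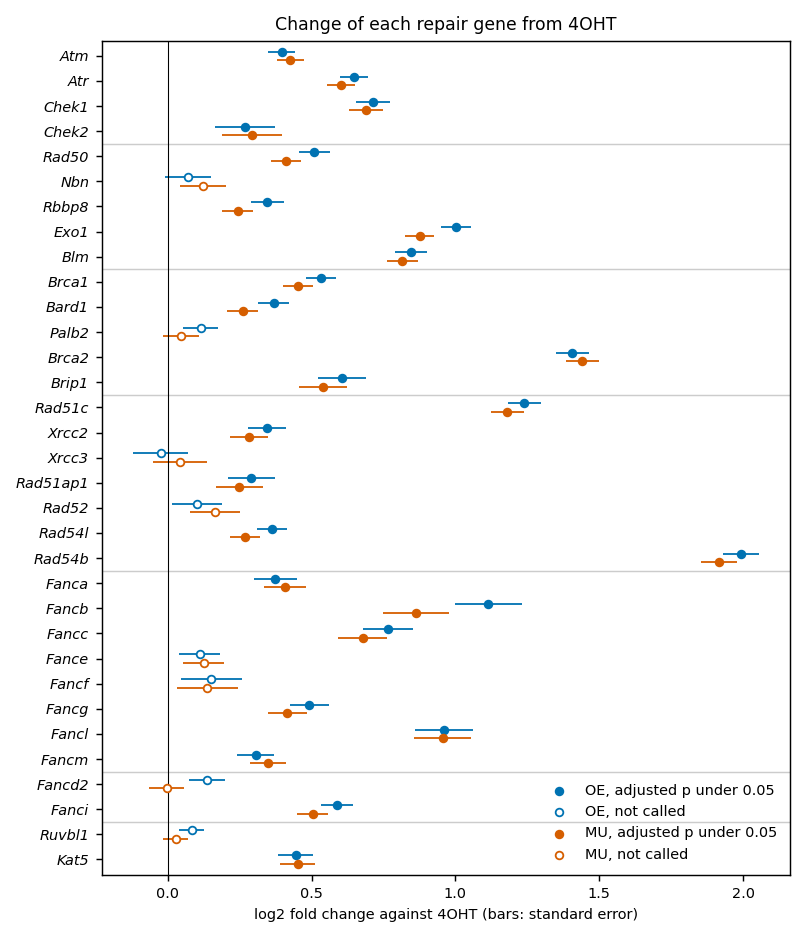
Log2 fold change of each repair gene in OE (blue) and MU (orange) against 4OHT on the TMM scale, with bars of 1 standard error; filled points passed an adjusted p of 0.05. Filled points lie right of 0 for 25 genes in each comparison, and Rad54b is farthest at 1.99 and 1.92. Of all genes, 29.9% (OE) and 29.5% (MU) were called higher. With libraries scaled to spermatogonia markers 17 (OE) and 13 (MU) repair genes were lower, beside 55.7% and 50.1% of all genes.

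In the Fanconi core complex 6 of 8 genes rose in each comparison on the TMM scale, with median log2 fold changes of 0.43 and 0.41. The shares of all genes called higher were 29.9% in OE and 29.5% in MU. Fancb, an X-linked subunit of the catalytic module (chrX:164980592-164997272), was at 3.92, 3.67 and 3.26 CPM in 4OHT, 6.82, 6.55 and 6.35 CPM in MU, and 7.605, 7.26 and 8.56 CPM in OE. Its 3 groups were separate, with OE above MU and MU above 4OHT. The log2 fold change was 1.11 ± 0.12 (adjusted p = 1.54e-06) in OE and 0.86 ± 0.12 (adjusted p = 1.84e-05) in MU. Fancl, the ubiquitin ligase subunit of that module, was at 6.06, 5.09 and 5.24 CPM in 4OHT, 11.1, 10.2 and 10.5 CPM in MU, and 10.1, 11.1 and 10.7 CPM in OE. MU and OE overlapped at about the same level, with 0.96 ± 0.10 (adjusted p = 1.52e-06) and 0.96 ± 0.099 (adjusted p = 1.62e-06). Fancc averaged 11 ± 0.866 CPM in 4OHT, 17.6 ± 1.09 CPM in MU and 18.7 ± 1.15 CPM in OE, with log2 fold changes of 0.77 ± 0.086 (adjusted p = 3.34e-06) and 0.68 ± 0.085 (adjusted p = 1.08e-05). Fancg, which binds FANCA, averaged 30.6 ± 2.64 CPM in 4OHT, 40.8 ± 1.07 CPM in MU and 43.03 ± 2.28 CPM in OE, with 0.49 ± 0.069 (adjusted p = 2.80e-05) and 0.42 ± 0.068 (adjusted p = 0.000130). Fanca itself averaged 30.5 ± 2.91 CPM in 4OHT, 40.4 ± 2.67 CPM in MU and 39.5 ± 1.12 CPM in OE, with 0.37 ± 0.074 (adjusted p = 0.000619) and 0.41 ± 0.074 (adjusted p = 0.000301). Fancm, the DNA translocase that anchors the complex, averaged 30.2 ± 2.25 CPM in 4OHT, 38.5 ± 0.705 CPM in MU and 37.4 ± 1.5 CPM in OE, with 0.31 ± 0.064 (adjusted p = 0.000936) and 0.35 ± 0.064 (adjusted p = 0.000316). With the spermatogonia scaling Fancb and Fancl stayed higher, Fancc and Fancg were called in neither comparison, and Fanca (-0.20) and Fancm (-0.27) were lower in OE.

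Fance, which contacts FANCD2, was at 33.2, 40.1 and 33.7 CPM in 4OHT, 38.05, 39.02 and 39.6 CPM in MU, and 38.6, 38.9 and 38.02 CPM in OE. All MU and OE libraries lay below the highest 4OHT library and above the other two, with 0.11 ± 0.070 (adjusted p = 0.198) and 0.12 ± 0.070 (adjusted p = 0.148). Without 4OHT replicate 2, the highest of that group, Fance was called higher in both, at 0.21 and 0.23, and its adjusted p ranged from 0.00831 to 0.619 in OE and from 0.00506 to 0.493 in MU over the alternatives. Fancf, an adaptor of the core complex, was at 7.39, 7.89 and 6.31 CPM in 4OHT, 8.21, 8.06 and 7.49 CPM in MU, and 7.79, 7.898 and 8.29 CPM in OE. All 3 groups overlapped, with 0.15 ± 0.11 (adjusted p = 0.243) and 0.14 ± 0.10 (adjusted p = 0.290).

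The substrates of the core complex moved unequally. Fanci was at 32.3, 32.5 and 35.4 CPM in 4OHT, 47.3, 46.5 and 48.3 CPM in MU, and 50.1, 50.05 and 50.5 CPM in OE, so that the 3 groups were separate, and its log2 fold change was 0.59 ± 0.054 (adjusted p = 4.61e-07) in OE and 0.50 ± 0.054 (adjusted p = 2.30e-06) in MU. Fancd2 was at 83.02, 76.7 and 90.7 CPM in 4OHT, 81.6, 85.9 and 82.3 CPM in MU, and 96.3, 90.8 and 88.3 CPM in OE. MU lay within the 4OHT range and OE reached above it only in part, with 0.14 ± 0.062 (adjusted p = 0.0740) and -0.0036 ± 0.061 (adjusted p = 0.967). Without 4OHT replicate 3 the OE change of Fancd2 was called at 0.19, and its adjusted p ranged from 0.00444 to 0.242 over the alternatives. Scaled to the spermatogonia markers, Fancd2 was lower in OE (-0.44) and MU (-0.49), and Fanci was called in neither.

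Of the TIP60 genes, Kat5, which encodes the acetyltransferase, was at 34.6, 36.6 and 34.8 CPM in 4OHT, 46.5, 50.6 and 47.9 CPM in MU, and 47.2, 51.4 and 45.9 CPM in OE. All MU and OE libraries were above 4OHT and overlapped each other, with log2 fold changes of 0.45 ± 0.061 (adjusted p = 2.14e-05) and 0.45 ± 0.060 (adjusted p = 1.91e-05). Ruvbl1 was at 105, 103 and 109.8 CPM in 4OHT, 109, 109 and 106 CPM in MU, and 112, 112 and 113 CPM in OE. OE lay just above 4OHT and MU overlapped 4OHT, with 0.083 ± 0.044 (adjusted p = 0.127) and 0.027 ± 0.044 (adjusted p = 0.633). Without 4OHT replicate 3 the OE change of Ruvbl1 was called at 0.10, and its adjusted p over the alternatives ran from 0.00273 to 0.355. Kat5 was called in neither comparison and Ruvbl1 was lower in both (-0.49 and -0.46) with the spermatogonia scaling. These counts sum all transcripts of a gene and do not resolve splice forms or protein methylation.

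Per kilobase of annotated exon, Ruvbl1 had the highest level, 55.8 CPM per kb in 4OHT, 56.9 in MU and 59.1 in OE, followed by Rad50 at 20 CPM per kb in 4OHT, 26.6 in MU and 28.5 in OE. The lowest levels in 4OHT belonged to genes that changed much: Fancb at 1.21 CPM per kb in 4OHT, 2.2 in MU and 2.62 in OE, Fancc at 1.32 CPM per kb in 4OHT, 2.11 in MU and 2.24 in OE, Fancl at 1.62 CPM per kb in 4OHT, 3.14 in MU and 3.15 in OE and Rad54b at 1.86 CPM per kb in 4OHT, 7.04 in MU and 7.42 in OE. In OE, Rad54b thus stood between Chek2 and Blm per kilobase, whereas in 4OHT only Fancb, Fancc and Fancl were lower. These levels use the union of all annotated exons, which is longer than any single transcript, and 8 of the 33 share 10.5% to 35.8% of their exon bases with another gene. For Fanca, Fancc, Fancf, Fanci, Fancl, Kat5 and Rad54l that gene is on the opposite strand, and whether the counting used strand is not given in the sources used here. Exon overlaps were looked up for the 33 repair genes and not for the other lists.

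MU against OE compared the catalytically dead with the wild-type construct, as the names were read. The 2 groups also differed in Prmt5 RNA level, so catalytic activity and this level cannot be told apart here. The counts do not measure PRMT5 protein. By western blot, the paper reports that PRMT5 levels were restored by either construct. The comparison called 0 of the 33 repair genes in either direction, and 2.12% of all genes were called higher and 1.06% lower. At an unadjusted p below 0.05, edgeR gave 3, DESeq2 4 and voom 5 repair genes, all lower in MU, and each called 0 after adjustment. On the TMM scale 23 of the 33 changes were negative (69.7%, against 48.0% of all genes), while with library sizes set by the spermatogonia markers 7 were and by the replication genes 12. The medians on the log2 scale were -0.056 with TMM (range -0.25 to 0.068), 0.037 with the spermatogonia markers and 0.014 with the replication genes, so the direction of the median turned with the scaling. For 10 genes, by TMM-scaled CPM, all MU libraries lay below all OE libraries: Rad50, Exo1, Brca1, Bard1, Xrcc2, Rad54b, Fancb, Fancd2, Fanci and Ruvbl1. That is 30.3% of the 33, against 12.8% of all genes. For 0 of the 33 all MU libraries lay above, against 13.0% of all genes. The same comparison had Prmt5 at -2.88, the summed fibroblast markers higher, the summed replication and mitotic genes lower and 10 of 15 macrophage markers called lower in MU (median -0.95, sums of 1192 ± 17.7 CPM against 2323 ± 64.7 CPM, SD, n = 3), and their part in these small differences was not tested.

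Among the 3 with an unadjusted p below 0.05, Exo1 differed by -0.13 ± 0.050 (adjusted p = 0.299), with a 95% interval of -0.23 to -0.017. Fancd2 differed by -0.14 ± 0.061 (adjusted p = 0.360), with an interval of -0.27 to -0.0080. Fancb differed by -0.25 ± 0.11 (adjusted p = 0.371), with an interval of -0.49 to -0.011. Their unadjusted p-values by edgeR were 0.0268, 0.0393 and 0.0424. Fitted on the 6 MU and OE libraries alone, Exo1 (-0.12, adjusted p = 0.0292) and Fancd2 (-0.14, adjusted p = 0.0499) were called lower in MU, while their adjusted p over all alternatives reached 0.667 and 0.731. The genes with the largest changes from 4OHT had narrow intervals in this comparison: -0.20 to 0.048 for Rad54b, -0.084 to 0.15 for Brca2 and -0.18 to 0.060 for Rad51c. The widest was that of Fancb, the gene with the lowest level.

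**Figure D3:**
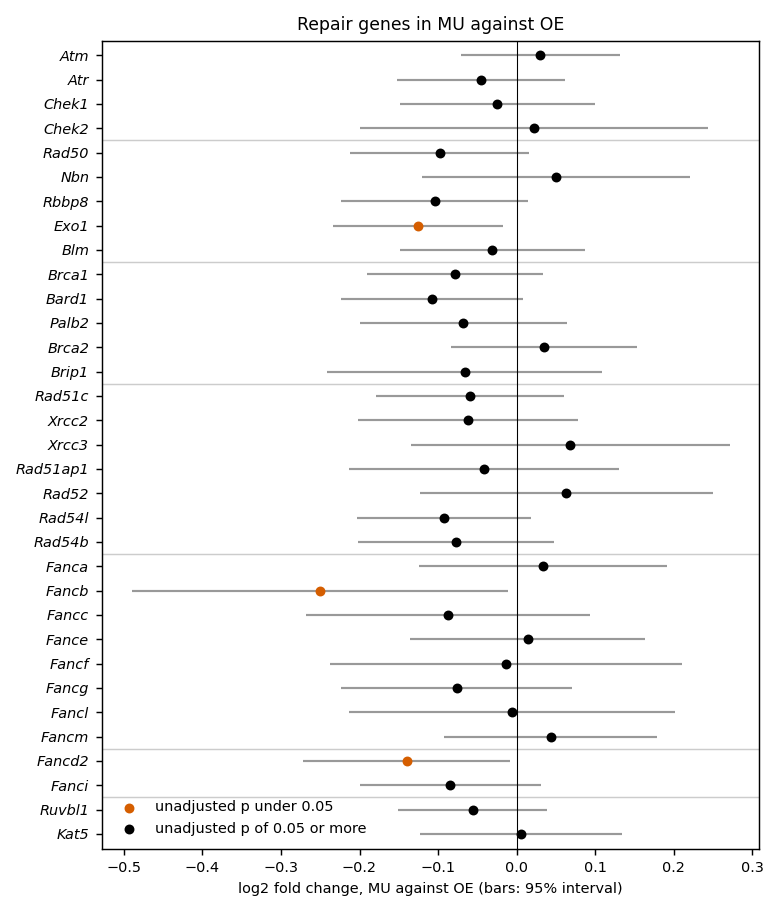
Log2 fold change of each repair gene in MU against OE (points) with its 95% interval (bars), by role, on the TMM scale. Points run from -0.25 (Fancb) to 0.068 (Xrcc3), and the intervals of Exo1, Fancd2 and Fancb leave out 0; none passed the adjusted threshold. The median turned from -0.056 to 0.037 with libraries scaled to spermatogonia markers.

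Promoter sequences were at hand for 26 of the 33 genes (RefSeq, GRCm38.p6, 250 bases before to 50 after a start) and not for Exo1, Rad50, Rad54b, Rbbp8, Nbn, Xrcc2 and Fancd2. They were searched on both strands for letters bound by the cell-cycle E2F factors. TTCCCGC was in 46.2% of the 26 and 5.29% of 27025 genes, and TTGGCGC in 11.5% and 2.85%. At least 1 of these 2 was in 14 of the 26 (53.8%) and in 7.79% of all genes. The longer TTTCCCGC, which contains the first, was in 19.2% and 1.24%, and TTTGGCGC in 0% and 0.585%. CCAAT was in 65.4% and 41.1%, and TTTGAA, the cell-cycle homology region, in 7.69% and 20.2%. Of the 14 genes with a match 12 were called higher in OE on the TMM scale, with a median log2 fold change of 0.44. Of the 12 without, 8 were called, with a median of 0.41. Called higher in OE were 75.8% of the 33 repair genes and 29.9% of all genes tested. Whether a match goes with the change was not tested. For some genes, among them Blm, Fancc and Fancl, the RefSeq start lies inside the longer annotated gene. A gene without a match thus lacks it only in the stretch searched. Matches were thus found in called and in uncalled genes. The next lines show this in 3 genes with changes above 2-fold in OE, in Blm, which rose without a match, in Rad52, which holds a match and was not called, and in Xrcc3, which has neither. Each runs 5′ to 3′ on the gene's strand from 250 bases before the start to 5 after it. Capitals mark TTCCCGC or TTGGCGC on either strand, and of the 2 annotated starts of Rad51c the upstream one is shown; the promoter of the other holds neither.
Brca2 (chr5:150522371-150522625, forward strand): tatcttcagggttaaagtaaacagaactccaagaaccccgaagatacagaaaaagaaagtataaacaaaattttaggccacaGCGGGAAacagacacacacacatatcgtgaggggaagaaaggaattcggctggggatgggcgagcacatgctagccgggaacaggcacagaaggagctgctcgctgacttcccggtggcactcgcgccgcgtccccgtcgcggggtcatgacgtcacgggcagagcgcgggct
Rad51c (chr11:87404950-87405204, reverse strand): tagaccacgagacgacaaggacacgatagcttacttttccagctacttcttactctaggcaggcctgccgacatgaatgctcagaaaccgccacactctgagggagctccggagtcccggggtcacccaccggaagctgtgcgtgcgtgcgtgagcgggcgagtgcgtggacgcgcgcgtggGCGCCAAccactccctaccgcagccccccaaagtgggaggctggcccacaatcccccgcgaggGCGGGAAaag
Fancb (chrX:164980342-164980596, forward strand): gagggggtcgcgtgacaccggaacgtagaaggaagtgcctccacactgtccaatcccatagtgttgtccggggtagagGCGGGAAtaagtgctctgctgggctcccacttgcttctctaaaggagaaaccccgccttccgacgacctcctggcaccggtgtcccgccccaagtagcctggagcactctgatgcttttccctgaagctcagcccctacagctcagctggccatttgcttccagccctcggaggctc
Blm (chr7:80534994-80535248, reverse strand): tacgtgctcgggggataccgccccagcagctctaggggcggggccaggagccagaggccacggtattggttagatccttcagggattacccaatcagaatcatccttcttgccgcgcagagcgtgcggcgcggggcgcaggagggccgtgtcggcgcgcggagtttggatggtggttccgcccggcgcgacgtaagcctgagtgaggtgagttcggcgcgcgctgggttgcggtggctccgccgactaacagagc
Rad52 (chr6:119902448-119902702, forward strand): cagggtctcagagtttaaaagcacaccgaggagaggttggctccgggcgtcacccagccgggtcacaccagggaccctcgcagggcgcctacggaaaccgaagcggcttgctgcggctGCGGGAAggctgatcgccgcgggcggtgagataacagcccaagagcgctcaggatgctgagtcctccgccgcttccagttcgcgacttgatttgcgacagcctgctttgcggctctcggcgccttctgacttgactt
Xrcc3 (chr12:111813875-111814129, reverse strand): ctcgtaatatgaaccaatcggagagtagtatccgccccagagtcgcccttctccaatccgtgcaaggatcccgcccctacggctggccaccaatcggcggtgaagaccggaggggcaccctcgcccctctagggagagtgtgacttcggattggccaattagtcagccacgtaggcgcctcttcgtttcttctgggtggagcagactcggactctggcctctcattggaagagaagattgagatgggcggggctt
In Rad51c the TTCCCGC match lies at the start itself and a TTGGCGC match 68 bases before it, while the matches of Brca2, Fancb and Rad52 begin 168, 172 and 132 bases before the start. Xrcc3 holds 6 CCAAT matches and no E2F-type letters, and neither comparison called it. A match is a description of the letters and not evidence of binding.

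Of 49 other recombination, crosslink and checkpoint genes, 34 rose and 5 fell in OE, and 34 and 5 in MU, whereas with the spermatogonia scaling 9 rose and 25 fell in OE and 11 and 23 in MU, beside 10.4% higher and 55.7% lower of all genes in OE and 11.7% and 50.1% in MU. Rif1, a partner of 53BP1 that limits resection, was at 111, 95.97 and 97.4 CPM in 4OHT, 248, 238 and 244 CPM in MU, and 252, 252 and 259 CPM in OE. Its log2 fold change was 1.33 ± 0.056 (adjusted p = 1.61e-10) in OE and 1.26 ± 0.056 (adjusted p = 3.27e-10) in MU. Ercc1, a subunit of the nuclease that cuts at crosslinks, went the other way at 101, 107 and 119.5 CPM in 4OHT, 20.1, 21.7 and 22.6 CPM in MU, and 16.6, 21.1 and 20.2 CPM in OE, with -2.49 ± 0.092 (adjusted p = 4.35e-11) and -2.34 ± 0.090 (adjusted p = 9.42e-11). Rif1 stayed higher with the spermatogonia scaling (0.75 and 0.78). In MU against OE 0 of these 49 were called by edgeR, with 2 at an unadjusted p below 0.05.

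Of 13 genes of end joining, the other route of break repair, 6 rose and 2 fell in OE, and 6 and 1 in MU (2 and 8, and 2 and 7, with the spermatogonia scaling). Prkdc, the DNA-dependent kinase, changed by 0.87 and 0.81, and Xrcc6, which encodes Ku70, by 0.75 and 0.71. Of 14 other TIP60 complex genes, 6 rose and 3 fell in OE, and 5 and 3 in MU (0 and 12, and 0 and 11, with the spermatogonia scaling), with Ing3 at 0.71 and 0.60 and Epc1 at -0.64 and -0.62. These shares, 46.2% and 42.9% called higher in OE on the TMM scale, lie nearer to the 29.9% of all genes than the 75.8% of the repair genes. For the other recombination, replication and mitotic genes they were 69.4%, 91.2% and 90.9%. With the spermatogonia scaling 10.4% of all genes were higher and 55.7% lower in OE, and 11.7% and 50.1% in MU. The sizes of these shares were not compared by a test. Of PRMT5 and 4 partners, 3 rose and 1 fell in each (1 and 2, and 2 and 2, with the spermatogonia scaling), with Coprs, a histone-binding cofactor, at 0.66 and 0.65.

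Cell-cycle genes moved alongside. Of 34 replication genes, 31 rose and 1 fell in OE, and 27 and 1 in MU (4 and 16, and 6 and 14, with the spermatogonia scaling). Pcna, the sliding clamp, changed by 1.17 and 1.11, and Pola2, a subunit of the primase complex, by 0.82 and 0.79. Summed replication genes ran from 3122 to 3443 CPM in 4OHT, 4082 to 4122 CPM in MU and 4259 to 4337 CPM in OE. The ratio of the summed repair genes to them was 0.396 to 0.428 in 4OHT, 0.453 to 0.462 in MU and 0.443 to 0.456 in OE, so every MU and OE library lay above 4OHT. With library sizes set by these 34 genes, 12 repair genes were higher and 7 lower in OE (all genes 14% and 46.7%), and 12 and 6 in MU (all genes 15.2% and 41.9%). In each comparison the 12 were Atr, Chek1, Exo1, Blm, Brca1, Brca2, Rad51c, Rad54b, Fancb, Fancc, Fancl and Fanci. Of 22 mitotic genes, 20 rose and 2 fell in each comparison (9 and 6 in OE, 9 and 8 in MU, with the spermatogonia scaling), with Nusap1 at 1.395 and 1.27 and Cenpf at 0.93 and 0.86, and their sums ran from 1691 to 1808, 2414 to 2486 and 2653 to 2685 CPM.

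**Figure D4:**
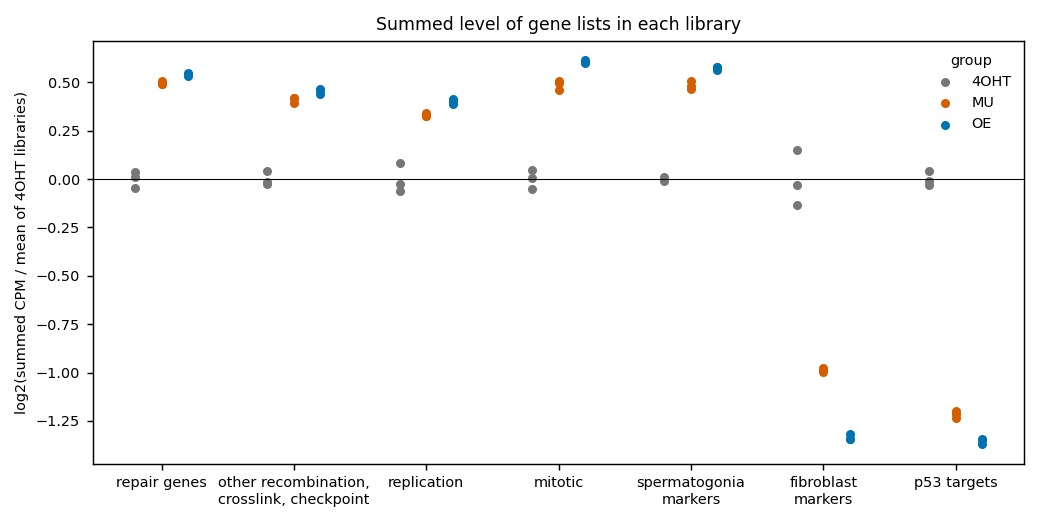
Summed CPM of 7 gene lists in each library, as the log2 ratio to the mean of the 4OHT libraries. Repair, replication, mitotic and spermatogonia sums lie above 0 in every MU and OE library, and fibroblast and p53 target sums lie below 0 in every one; the ratio of repair to spermatogonia sums in 4OHT (0.522 to 0.557) spanned those of MU and OE.

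The genes of E2F and DREAM factors were mixed. Of 13 E2F and DREAM complex genes, 8 rose and 3 fell in OE, and 7 and 5 in MU (1 and 8 in both with the spermatogonia scaling). Mybl2, an activator of mitotic genes, changed by 1.33 and 1.198, and Rbl2, a repressor subunit, by -0.90 and -0.86. Of 16 targets of p53, the factor that answers DNA damage, 1 rose and 15 fell in each comparison under both scalings. Perp, an adhesion gene, was at 68.7, 66.7 and 66.2 CPM in 4OHT, 10.7, 9.94 and 11.8 CPM in MU, and 7.09, 7.36 and 7.299 CPM in OE, with -3.21 ± 0.075 (adjusted p = 6.76e-13) in OE and -2.63 ± 0.071 (adjusted p = 3.87e-12) in MU. Plk2, a stress-responsive kinase, averaged 260.3 ± 22.7 CPM in 4OHT, 62.4 ± 1.08 CPM in MU and 53.03 ± 1.22 CPM in OE, with -2.29 ± 0.061 (adjusted p = 2.11e-12) and -2.06 ± 0.060 (adjusted p = 7.20e-12). In MU against OE, 6 of the 16 were called higher and 0 lower, Perp by 0.58 ± 0.071 (adjusted p = 0.000341) and Plk2 by 0.24 ± 0.059 (adjusted p = 0.0459). Several p53 targets are also made by fibroblasts, whose markers moved in the same directions, and the part of that cell type was not tested.

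**Figure D5:**
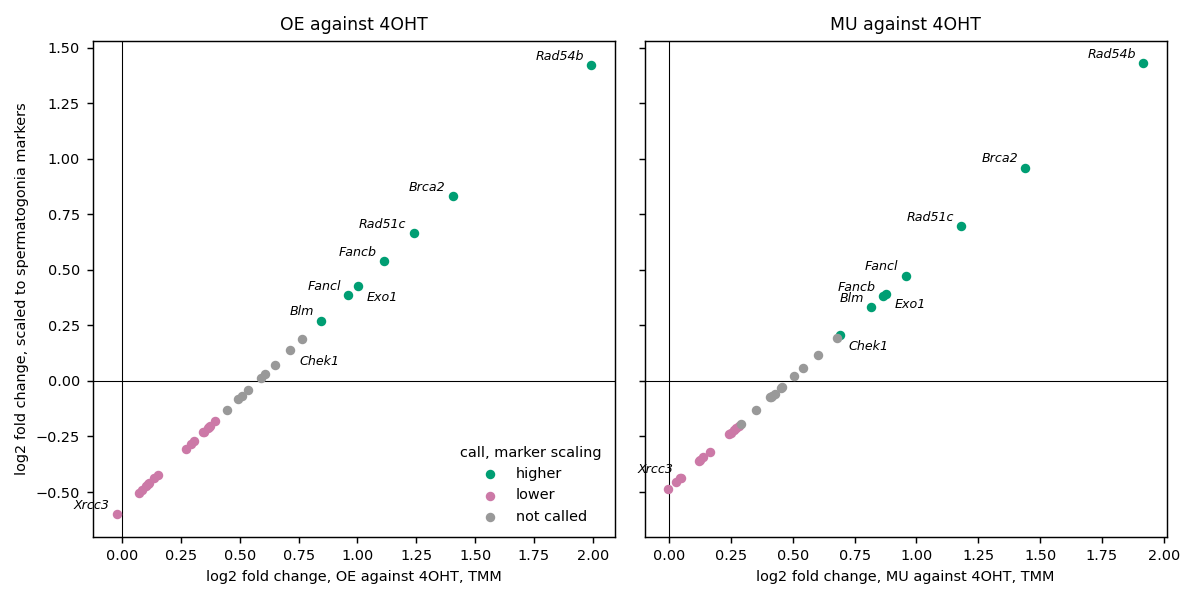
Log2 fold change of each repair gene against 4OHT on the TMM scale (horizontal) and with library sizes set by 14 spermatogonia markers (vertical), in OE (left) and MU (right). The change of scale shifts all points by about the same amount. With a call, 7 genes in OE and 8 in MU stay above 0, and 17 and 13 lie below 0. Of all genes, 10.4% and 11.7% were then called higher and 55.7% and 50.1% lower.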

How the data were processed

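The authors trimmed, aligned and assembled the reads with Trimmomatic 0.39, HISAT2 2.2.1 and StringTie 2.2.1 on GRCm38, per the labels, and deposited 1 table of raw read counts per gene for 9 libraries. How StringTie output became counts, and whether strand was used, is not given in the sources used here. Values of 4 counts were 1.35 to 1.84 times as frequent as the mean of 3 and 5 counts, so dividing by 4 was tried as an alternative. All genes of the table went through edgeR 4.0.16 in R 4.3.3: filterByExpr (minimum count 10, minimum total 15), TMM factors (0.94 to 1.035), and a quasi-likelihood fit on the group over all 9 libraries, with Benjamini-Hochberg adjustment over 22452 genes and a threshold of 0.05. DESeq2 1.42.0 and limma 3.58.1 served as alternatives. The code of the fit was run on simulated counts with the same dispersion for every gene, which does not measure how well it suits these data. Levels are CPM with TMM factors, per kilobase of GENCODE vM21 exon union where stated. The spread of each mean level is given by its SD over 3 libraries. The ± after a log2 fold change is its standard error, derived from the edgeR test. The members and lists were chosen with earlier results of these data known. Every repair gene was named in the comparisons against 4OHT, those with an unadjusted p below 0.05 in MU against OE, and from each other list the 2 genes with the largest change in OE among those called with a mean of at least 1 CPM. For a symbol with several identifiers (Itgam), the lowest identifier was used.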

Additional observations from a re-analysis of the deposited data

How the results depend on the processing

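Over 18 alternative fits (another scaling, tool, filter, sample set, replicate block, or 1 library left out) the count of repair genes higher than in 4OHT stayed between 24 and 29 in OE and between 23 and 30 in MU, with 0 lower, and leaving out 1 library gave 24 to 26 and 23 to 25. Asking also for a change of at least 1.5-fold left 12 repair genes (36.4%) in OE and 10 (30.3%) in MU, all higher, beside 16.9% and 16.5% of all genes higher and 18.3% and 16.4% lower (7918 and 7382 genes in all). Library totals without TMM moved the median of all genes to 0.106 in OE and 0.156 in MU and gave 29 and 30 repair genes higher. Scaling to the spermatogonia markers gave 7 higher and 17 lower in OE (all genes 10.4% and 55.7%) and 8 and 13 in MU (11.7% and 50.1%). Scaling to the replication genes gave 12 and 7 (all genes 14% and 46.7%), and 12 and 6 (15.2% and 41.9%). In MU against OE, 0 repair genes were called except with the 6 libraries alone, which gave 2 lower. Genes called in all went from 712 to 1140 with DESeq2, 1565 with the 6 libraries alone, 388 at an adjusted p below 0.01, 241 at 1.5-fold and 1251 with the spermatogonia scaling. Leaving out 1 library gave 400 (MU replicate 2) to 1099 (4OHT replicate 3), with 432 without MU replicate 1, 411 without MU replicate 3 and 472 without OE replicate 3. The causes were not tested.

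Of 1242 single values recomputed, 1181 kept direction and call, 16 lost the call, 24 gained one, and 21 changed sign, all of them uncalled. Xrcc3 in OE turned to 0.0644 without TMM, 0.0549 with upper quartile factors and 0.00179 without the filter, and ran from -0.147 to 0.0584 with 1 library left out. Fancd2 in MU turned to 0.109, 0.0753 and 0.0593 in the same settings, 0.00065 with voom and 0.00152 with 6 libraries, and ran from -0.0506 to 0.0553. Ruvbl1 in MU turned to -0.00223 with DESeq2 size factors, -0.00228 with DESeq2 and -0.0032 with counts divided by 4. With 1 library left out, Nbn in OE ran from -0.0116 to 0.123, Palb2 in MU from -0.00673 to 0.0636 and Xrcc3 in MU from -0.0193 to 0.0756.

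Libraries with the same replicate number did not deviate together (correlations of -0.0195 to 0.0443), so the numbers were not taken to pair them. For 5 of 18 library and group combinations the best match carried the same number. The fit with a replicate block called 25 repair genes higher in OE, 25 in MU and 0 in MU against OE, and 12807, 12443 and 674 of all genes.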

Other observations

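Pairs of genes that start close together on opposite strands were common among the repair genes. A protein-coding gene starting within 1000 bases on the opposite strand was found for 11 of the 33 (33.3%), against 2386 of 22028 protein-coding genes (10.8%). In OE against 4OHT, on the TMM scale, the partners went different ways. Rad51c (1.24) starts 111 bases from Tex14, a gene of the germ cell bridge, which rose by 0.82 on the log2 scale (adjusted p = 1.98e-08, edgeR). Fancb (1.11) starts 217 bases from Mospd2, which fell by 0.61 (adjusted p = 6.75e-06), and Rad54l (0.36) 150 bases from Pomgnt1, which fell by 0.81 (adjusted p = 1.56e-07). Brca1 (0.53) and Nbr1 (0.41), Atm (0.40) and Npat (0.33), and Chek2 (0.27) and Hscb (0.80) rose together. For Fancd2, Fancf, Palb2, Rad51ap1 and Xrcc3 the partner was not called. With the spermatogonia scaling Atm, Chek2 and Rad54l were lower in OE than in 4OHT. These pairs were looked up after the repair genes had been chosen, and no test of the pairs was made.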
